A study of Mus musculus with 8 samples.

Results

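The 45 genes described here build ribosomes in the nucleolus. They were chosen by name, as genes of ribosome biogenesis and nucleolar function, and all 45 had a probe set (a group of short probes for one transcript) on the array, among 18193 genes in all. The whole set also passed the filter on low signals that left 10916 genes for testing. Total RNA came from macrophages sorted by the surface protein F4/80 from mammary tumours of 80-day-old FVB mice, and was hybridised to Affymetrix arrays. The control group, with genotype PyMT;E2f3 f/f, held 4 arrays (replicates B, C, D and G), and the E2f3-deleted group, PyMT;Lys Cre:E2f3 f/f, held 4 (replicates A, E, F and H). All mice therefore carried the PyMT oncogene and the floxed E2f3 allele, and the groups differed in Lys Cre, a recombinase driven by lysozyme regulatory sequence in myeloid cells. No group had Cre without the floxed allele, so an effect of the deletion and an effect of Cre itself cannot be told apart. The labels do not say that the arrays came from separate animals, so the p-values measure only how these samples spread, a spread that may be technical.

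Ribosome production starts with RNA polymerase I, which transcribes the ribosomal DNA into a long precursor in the nucleolus. Small nucleolar ribonucleoproteins then guide chemical modification of that precursor, and large assemblies of processing factors cut it and fold it with ribosomal proteins into the small and the large subunit. The transcription factor MYC is a known driver of this programme, which is tied to cell growth, and E2F3 is known to act on cell-cycle genes. The comparison asked how these genes differed between tumour macrophages of mice with floxed E2f3 that carried Lys Cre and of mice that did not.

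The sorted cells carried the macrophage genes their label calls for. All 14 measured macrophage markers lay above the filter, with mean control log2 signals from 9.67 to 14.56, whereas 5 of 8 lymphocyte markers lay under it. Genes of other cells were also seen. Of the 12 epithelial and 10 fibroblast markers 0 lay under the filter. Their highest mean control signals, 14.17 for Csn3 and 12.29 for Col1a2, lay within the macrophage range. The lymphocyte marker Ms4a1 measured 8.87 and 9.49 on controls B and G, and 5.14 and 4.92 on controls C and D. The 12 tested markers of endothelial cells, of 14 measured, had per-array medians of 1.99, 1.07, 1.99 and 0.04 log2 units above the control mean in the E2f3-deleted group (order A, E, F, H), against −0.45 to 0.46 in controls. The defining endothelial genes Pecam1 and Cdh5 were under the filter by their mean over the 8 arrays, with means of 4.87 and 5.21 in controls and 5.85 and 6.22 in the E2f3-deleted group. In the same order, medians of the 10 fibroblast markers, all 10 higher by their difference, were 0.97, −0.39, −0.0012 and 1.74, against −0.73 to 0.45 in controls. Those of the 12 epithelial markers, 10 of them higher, were 0.29, 0.72, 0.77 and −0.27, against −0.37 to 0.77. The 7 tested mast cell markers, all 7 higher, had 0.75, 1.23, −0.34 and 3.99, against −0.47 to 0.22. At its brighter probe set the E2f3 transcript measured 7.67 ± 0.109 log2 units in controls and 7.63 ± 0.123 after deletion (SD, n = 4 each), and at the dimmer one 6.16 ± 0.136 and 6.02 ± 0.0952. Neither difference passed an adjusted p of 0.05 over all probe sets (limma, adjusted p = 0.865 and 0.613). Where these probe sets lie relative to the deleted part is not given in the sources used here, so they check no label. E2f3-deleted replicate H stood apart, with a mean correlation of 0.983 with its group over all probe sets, beside 0.990 to 0.991 in the other E2f3-deleted arrays. The letters of the scan files differ from those of the titles, and run from A to D in the controls and from E to H in the E2f3-deleted arrays. Grouping by scan file letter here means reading them as if they were title letters. That would exchange 1 array of each group, F of the E2f3-deleted arrays and B of the controls.

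Most ribosome biogenesis genes were slightly lower in the E2f3-deleted macrophages. Of the 45 genes, 42 had a negative difference (E2f3-deleted minus control) and 3 a positive one, where 58.7% of all tested genes were negative. The median difference was −0.11 log2 units, or −7.41% on the linear scale, beside −0.03 for all tested genes, and the middle range of the genes ran from −0.18 to −0.06. No gene of the set passed an adjusted p of 0.05 in limma, a linear model fitted over all genes (0 of 45, smallest adjusted p = 0.16), and neither did any of the 10916 genes, of which 1547 had an unadjusted p under 0.05. At an unadjusted p under 0.05, 8 of the 45 genes were lower (17.8%) and 0 higher, where 6.9% of all tested genes were called lower and 7.27% higher. In 6 genes all 4 E2f3-deleted values lay below all 4 control values (13.3%), against 4.22% of all tested genes, and in 0 did they all lie above, against 4.26%. These counts describe the set and are no test of it.

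**Figure D1:**
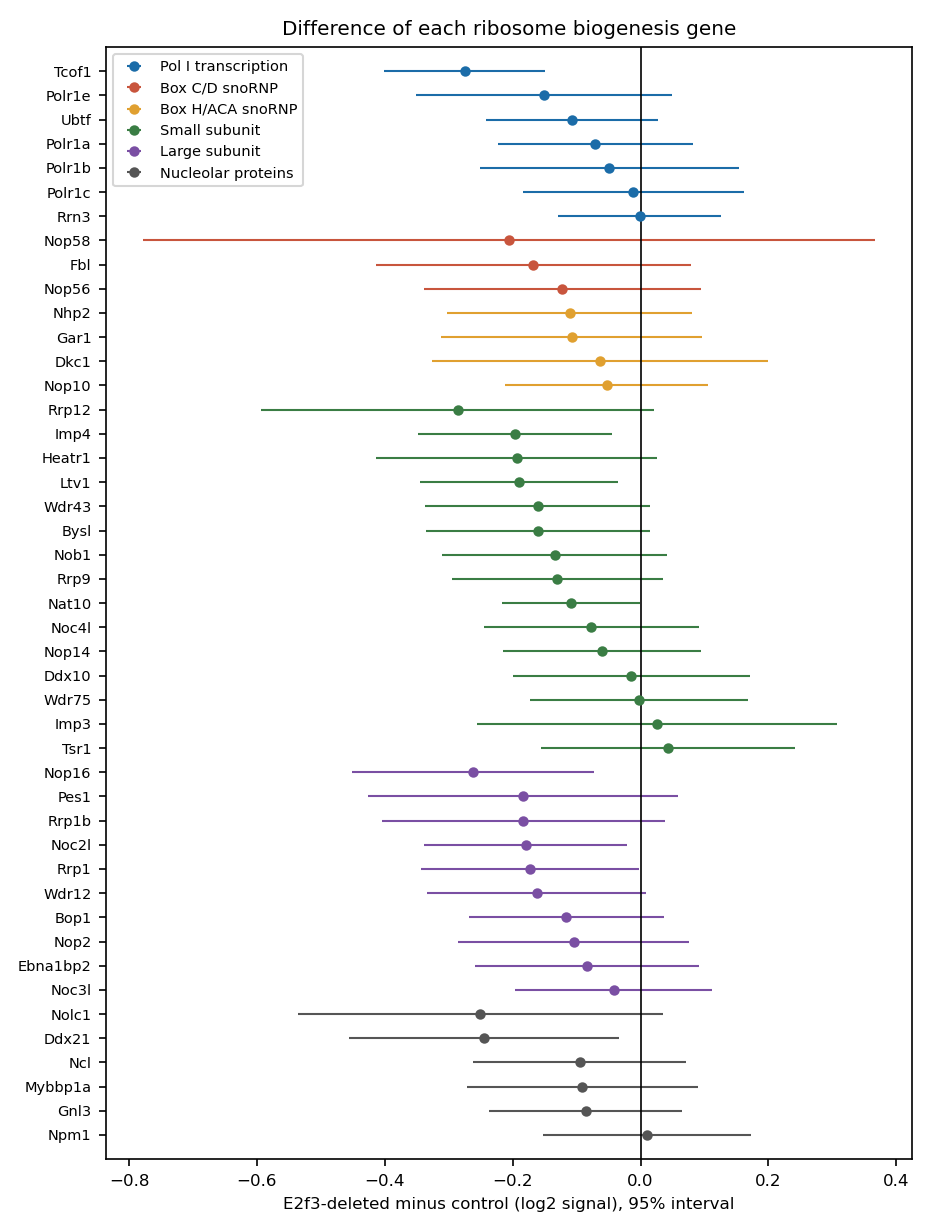
Difference between E2f3-deleted and control macrophages in log2 signal (horizontal axis) for each of the 45 genes (vertical axis), coloured by role. Points are limma estimates and bars their 95% confidence intervals; 42 points lie left of 0, and most intervals include 0.

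The count at an unadjusted p depended on single arrays, and replicate H, which stood apart, left the median at −0.11 and 42 of 45 genes lower when it was left out. The count was 14 without E2f3-deleted replicate E (all tested genes called lower, 8.48%), 4 without replicate A (4.76%), 4 without replicate H (5.33%), 4 without control replicate B (4.3%) and 3 without control replicate D (6.19%). With arrays grouped by scan file letter it was 1 (3.18%). In that grouping 0 of the 45 genes had groups without overlap, beside 2.41% of all tested genes in either direction and 1.75% lower. The number of genes without overlap was 13 without replicate E, 14 without control replicate C and 10 without control replicate G, where the shares of all tested genes, in either direction, were 16.7%, 12.2% and 11.9%. Shares of all tested genes with the E2f3-deleted values below were 8.9%, 7.13% and 5.73%. The number of genes with a negative difference moved less, from 38 to 43 when any 1 array was left out and 36 by scan file letter.

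Promoters of 40 of the 45 genes were in the RefSeq table (build GRCm38.p6, of the C57BL/6J strain, from 250 bases before to 50 after the start), those of Tcof1, Rrp12, Fbl, Npm1 and Bop1 not being among them. They were searched on both strands for CACGTG, the E-box that MYC binds, and for the E2F sites TTTCCCGC, TTTCGCGC, TTTGCCGC and TTTGGCGC, which share no overlap with the E-box. The E-box was in 8 of 40 (20%), beside 12% of 8855 tested genes and 8.09% of all 27025 genes with a promoter. An E2F site was in 4 of 40 (10%), beside 4.87% and 2.6%. A match describes letters only. The 8 genes with an E-box had a median difference of −0.13, from −0.20 to 0.04, and the 32 without one −0.11, from −0.26 to 0.03. The 4 genes with an E2F site, Ncl, Nolc1, Nop58 and Tsr1, had differences from −0.25 to 0.04.

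Stretches of 250 bases before the start are shown for genes with an E-box, an E2F site or neither, at differences far from and near 0, with E-boxes and E2F sites in capitals. Imp4 (chr1:34439579-34439828, plus strand) has an E-box 121 bases before the start and a difference of −0.20, whereas Rrn3 (chr16:13780449-13780698, plus strand) has E-boxes 215 and 48 bases before it and a difference of −0.0012. Nolc1 (chr19:46075597-46075846, plus strand) has an E2F site 117 bases before the start and a difference of −0.25, and Tsr1 (chr11:74897830-74898079, plus strand) has one on the opposite strand 80 bases before it and a difference of 0.04. Tsr1 also has an E-box, 24 bases after the start and outside the stretch shown, and Nolc1 has none in its window. Nop16 (chr13:54590075-54590324, minus strand), with a difference of −0.26, has neither in its window. All are written 5′ to 3′ on the strand of the gene.
Imp4: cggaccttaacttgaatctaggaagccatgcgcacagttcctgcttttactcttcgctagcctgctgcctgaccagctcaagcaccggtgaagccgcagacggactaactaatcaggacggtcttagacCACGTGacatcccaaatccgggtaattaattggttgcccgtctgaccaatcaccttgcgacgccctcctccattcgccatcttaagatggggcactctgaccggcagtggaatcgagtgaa
Rrn3: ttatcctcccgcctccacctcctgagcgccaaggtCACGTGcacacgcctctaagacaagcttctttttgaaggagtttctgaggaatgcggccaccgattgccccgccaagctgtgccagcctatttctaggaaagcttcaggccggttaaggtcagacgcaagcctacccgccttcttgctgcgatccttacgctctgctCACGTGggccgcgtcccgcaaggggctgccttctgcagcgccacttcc
Nolc1: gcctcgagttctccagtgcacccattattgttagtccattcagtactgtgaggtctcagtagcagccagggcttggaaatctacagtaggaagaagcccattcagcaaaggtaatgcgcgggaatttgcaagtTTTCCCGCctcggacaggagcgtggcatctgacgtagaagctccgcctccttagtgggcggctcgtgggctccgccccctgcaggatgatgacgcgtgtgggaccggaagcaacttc
Tsr1: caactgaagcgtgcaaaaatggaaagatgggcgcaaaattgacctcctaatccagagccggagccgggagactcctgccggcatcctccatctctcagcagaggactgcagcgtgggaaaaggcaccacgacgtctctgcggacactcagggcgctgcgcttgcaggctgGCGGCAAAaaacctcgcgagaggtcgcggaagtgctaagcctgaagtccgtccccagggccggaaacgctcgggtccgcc
Nop16: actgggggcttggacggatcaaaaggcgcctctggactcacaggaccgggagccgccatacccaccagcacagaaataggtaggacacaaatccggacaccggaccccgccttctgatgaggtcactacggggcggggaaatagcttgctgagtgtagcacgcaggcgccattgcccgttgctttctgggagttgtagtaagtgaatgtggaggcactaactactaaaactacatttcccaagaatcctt

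Among genes of RNA polymerase I transcription, all 7 were lower, with a median of −0.07. Tcof1 encodes treacle, a nucleolar protein needed for ribosomal DNA transcription and for early processing of the precursor. Its log2 signals were 7.70, 7.80, 7.72 and 7.77 in controls (B, C, D and G, the order used throughout) and 7.39, 7.49, 7.55 and 7.46 in the E2f3-deleted group (A, E, F and H). The groups did not overlap, and a gap of 0.151 log2 units separated the lowest control from the highest E2f3-deleted value. The difference was −0.28 (SE 0.0545, limma, adjusted p = 0.16), with a 95% confidence interval from −0.40 to −0.15. Its other probe sets, dimmer ones, had differences of −0.36 and −0.23 in the fit over all probe sets. By scan file letter its difference was −0.20.

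The remaining genes of this step, Rrn3 with its pair of E-boxes among them, lay nearer to 0. The catalytic polymerase subunits Polr1a and Polr1b had differences of −0.07 (SE 0.0661) and −0.05 (SE 0.088), and Polr1c, a subunit shared with RNA polymerase III, −0.01. Polr1e, a subunit peculiar to polymerase I, had −0.15 (SE 0.087) and Ubtf, the factor that keeps ribosomal DNA open, −0.11 (SE 0.0587). Rrn3, which recruits the polymerase to its promoter, had log2 signals of 8.0, 7.99, 8.0 and 7.92 in controls and 7.88, 8.06, 7.97 and 8.0 in the E2f3-deleted group. Those values interleave, and the difference was −0.0012 (SE 0.0554, 95% confidence interval −0.13 to 0.13), with a sign that flips when single arrays are left out. Tcof1 is thus the one gene of the 7 whose interval excluded 0.

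**Figure D2:**
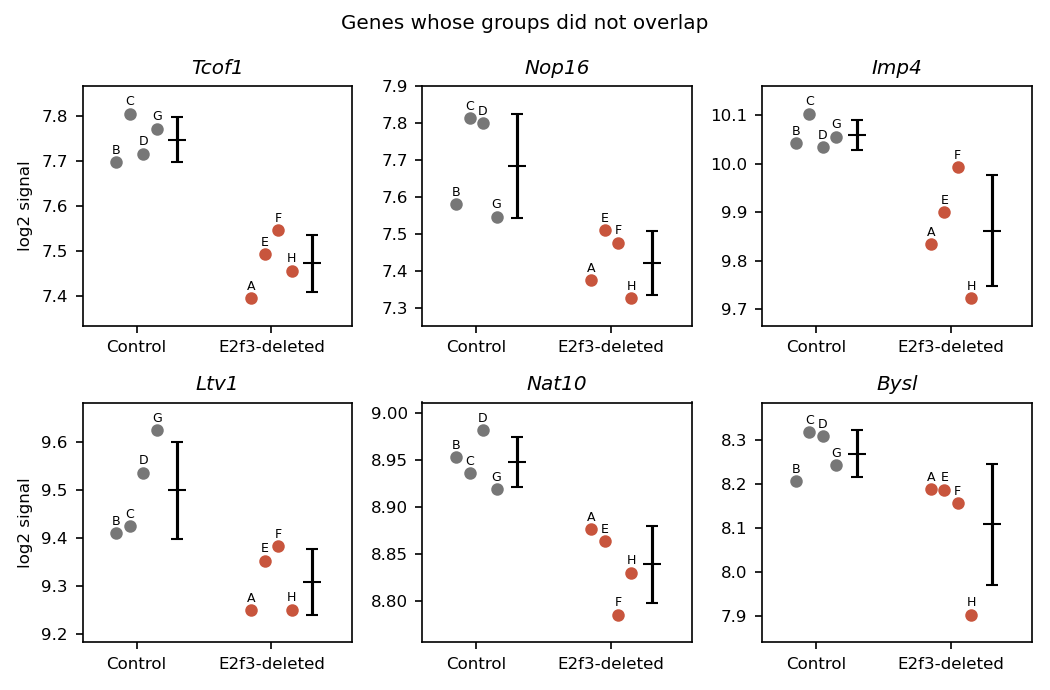
Log2 signal on each array (points, lettered by replicate) of the 6 genes whose control and E2f3-deleted values did not overlap, with the mean and SD of each group (n = 4) in black. Each panel has its own vertical axis, which does not start at 0; Tcof1 has the widest gap between groups at 0.151, and Bysl the narrowest at 0.019.

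Of the 15 factors of the small subunit, 13 were lower, with a median of −0.13. The list holds 4 of the 6 genes without overlap (26.7% of the 15), beside 4.22% lower among all tested genes. Imp4, a protein of the small nucleolar ribonucleoprotein that starts precursor cleavage, had log2 signals of 10.04, 10.10, 10.03 and 10.06 in controls and 9.83, 9.90, 9.99 and 9.72 in the E2f3-deleted group. The controls lay close together and every E2f3-deleted array was lower, replicate H the most. The difference was −0.20 (SE 0.0659, limma, adjusted p = 0.274). Ltv1, an export and maturation factor of the late small subunit, had 9.41, 9.42, 9.54 and 9.62 against 9.25, 9.35, 9.38 and 9.25. The highest E2f3-deleted value, replicate F, came within 0.0275 of the lowest control, and the difference was −0.19 (SE 0.0673, limma, adjusted p = 0.283).

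Nat10, which acetylates cytidines of the small-subunit RNA, had signals of 8.95, 8.94, 8.98 and 8.92 in controls and 8.88, 8.86, 8.79 and 8.83 in E2f3-deleted macrophages. Both groups were tight, and the difference was small, −0.11 (SE 0.0469, limma, adjusted p = 0.351). By scan file letter it was −0.02. Bysl, a factor of small-subunit assembly, had 8.21, 8.32, 8.31 and 8.24 against 8.19, 8.19, 8.16 and 7.90. Replicate H stood well below the other E2f3-deleted arrays, which lay just under the controls, and the difference of −0.16 (SE 0.0761, limma, adjusted p = 0.385) was −0.09 without replicate H.

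The other factors of this subunit overlapped between groups. Rrp12, which acts in export and maturation, had the most negative estimate of the 45 genes, −0.29, with a wide error (SE 0.133), since replicate A was at 6.33 and replicate E at 6.95, inside the control range of 6.89 to 7.10. Heatr1, Wdr43 and Wdr75 belong to the early processome that joins transcription to processing. Heatr1 had −0.19 (SE 0.0953) and Wdr43 −0.16 (SE 0.0766), but Wdr75 had −0.0022 (SE 0.0741). Nob1, the nuclease of the last cleavage, had −0.13, Rrp9, a protein of the same particle as Imp4, −0.13, Noc4l −0.08, Nop14 −0.06 and the helicase Ddx10 −0.01.

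The 2 small-subunit factors with positive estimates were Tsr1 and Imp3. Tsr1, a GTPase-like factor of the late small subunit, had log2 signals of 11.33, 11.09, 11.43 and 11.31 in controls and 11.42, 11.34, 11.20 and 11.38 in the E2f3-deleted group, a difference of 0.04 (SE 0.086, limma, adjusted p = 0.835). It was −0.03 without control replicate C, 0.01 without replicate A, and 0.09 without either control replicate D or E2f3-deleted replicate F. Its other probe set had −0.08. Imp3, the partner of Imp4 in the same complex, had 9.17, 9.25, 9.25 and 9.45 against 9.24, 9.36, 9.59 and 9.03. The values of Imp3 spread more among E2f3-deleted arrays than between groups, and the difference was 0.03 (SE 0.122, limma, adjusted p = 0.937). It turned to −0.07 without replicate F and to −0.01 without control replicate B.

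All 10 factors of the large subunit were lower, with a median of −0.17, where 58.7% of all tested genes were negative. At an unadjusted p under 0.05, 3 of the 10 were lower (30%), beside 6.9% of all tested genes. Nop16, a factor of early large-subunit particles, had log2 signals of 7.58, 7.81, 7.80 and 7.55 in controls and 7.38, 7.51, 7.48 and 7.33 in the E2f3-deleted group. Control replicates B and G lay close to the E2f3-deleted values and the groups were 0.0357 apart. The difference was −0.26 (SE 0.0823, limma, adjusted p = 0.255), and its other probe set, with a mean signal of 5.93, just under the filter, had −0.25. Noc2l, which helps move early large-subunit particles through the nucleus, had 8.52, 8.46, 8.60 and 8.44 against 8.27, 8.47, 8.34 and 8.23. Replicate E reached into the control range, and the difference was −0.18 (SE 0.0688, limma, adjusted p = 0.306). Rrp1, a processing factor of the large-subunit RNA, had 10.65, 10.65, 10.54 and 10.50 against 10.32, 10.54, 10.48 and 10.30, again with replicate E inside the control range, and a difference of −0.17 (SE 0.0742, limma, adjusted p = 0.348). By scan file letter Noc2l and Rrp1 both had −0.09.

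Pes1, Bop1 and Wdr12 form a complex that processes the large-subunit RNA. They had differences of −0.18 (SE 0.105), −0.12 (SE 0.0662) and −0.16 (SE 0.0744), and in each the lowest of the 8 arrays was E2f3-deleted replicate A. Rrp1b, a paralogue of Rrp1, had −0.18 (SE 0.0961), the methyltransferase Nop2 −0.10, Ebna1bp2 −0.08 and Noc3l, a partner of Noc2l, −0.04.

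All 7 proteins of the modification machines had negative estimates, each with a 95% confidence interval that included 0. The box C/D particle, which methylates ribose, holds Fbl, its methyltransferase, with −0.17 (SE 0.107), and the scaffold proteins Nop56, with −0.12 (SE 0.0941), and Nop58, with −0.21 (SE 0.249). The wide error of Nop58 came from the E2f3-deleted arrays, at 7.93, 9.11, 8.55 and 9.05, around controls from 8.66 to 9.01. The box H/ACA particle, which makes pseudouridine, holds the enzyme Dkc1, with −0.06 (SE 0.114), and Nhp2 (−0.11), Gar1 (−0.11) and Nop10. Nop10, among the 4 genes of highest signal, had 12.15, 11.998, 12.22 and 12.18 against 12.03, 12.002, 12.16 and 12.14, values that overlap throughout, with a difference of −0.05 (SE 0.0688, limma, adjusted p = 0.738). Without control replicate C it was −0.10, without control replicate D −0.03, without E2f3-deleted replicate A −0.04 and without replicate E −0.03.

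Among 6 nucleolar proteins with broader roles, 5 were lower, with a median of −0.09. Ddx21, a helicase of transcription and processing, had log2 signals of 9.19, 9.04, 9.24 and 9.10 in controls and 8.76, 9.10, 8.98 and 8.76 in the E2f3-deleted group. Replicates A and H were low and replicate E lay within the control range, and the difference was −0.25 (SE 0.0918, limma, adjusted p = 0.299), or −0.14 by scan file letter and −0.16 with the mean of probe sets. Its other probe set had −0.08 (SE 0.08). Nolc1, a chaperone of small nucleolar ribonucleoproteins, had −0.25 (SE 0.124), with replicate A at 8.53 and replicate E at 9.10 beside controls from 9.01 to 9.27. Ncl encodes nucleolin, an abundant protein of the nucleolus, and had 12.26, 12.28, 12.37 and 12.22 against 12.01, 12.30, 12.20 and 12.23. The groups of Ncl overlapped, with a difference of −0.10 (SE 0.0724, limma, adjusted p = 0.559), or −0.04 without replicate A.

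Npm1 encodes nucleophosmin, a histone and ribosome chaperone that shapes the outer nucleolus. Its signals were 12.75, 12.70, 12.94 and 12.73 in controls and 12.68, 12.86, 12.80 and 12.80 in the E2f3-deleted group. They interleave, and the difference was 0.01 (SE 0.0708, 95% confidence interval −0.15 to 0.17), with a sign that flips with median centring and when single arrays are left out. Its other probe set had −0.13. Gnl3 (nucleostemin) and Mybbp1a, both nucleolar proteins linked to p53 control, had differences of −0.09 each.

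Other probe sets of the same genes lay on the same side. Of the 45 genes, 33 had more than 1 probe set, and 35 of the 49 further probe sets had a mean signal above the filter. All 35 had a negative difference in the fit over all probe sets, where 66.2% of the 7206 further probe sets of all genes above the filter were negative. An unadjusted p under 0.05 was reached by 8 of the 35, all lower (22.9%), beside 7.38% of the 7206 lower and 4.54% higher. Their median was −0.14, beside −0.05. Among the genes described above, further probe sets above the filter had −0.30 and −0.10 for Imp4, −0.08 for Ddx21, −0.11 for Noc2l, −0.21 for Rrp1 and −0.10 for Bysl. Noc4l, at −0.08 with the probe set used, had −0.12, −0.25 and −0.27 with the others, and Nop56, at −0.12, had −0.30. Pes1, at −0.18, had −0.03 with its other probe set. All further probe sets come from the same arrays and the same genes, so they are not independent of the values above. In Ebna1bp2, Noc3l, Npm1, Polr1a, Tsr1 and Wdr75 the probe sets had both signs. The genes with a mean log2 signal of 10 or more (11) had a median difference of −0.08, and those under 10 (34) of −0.13.

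**Figure D3:**
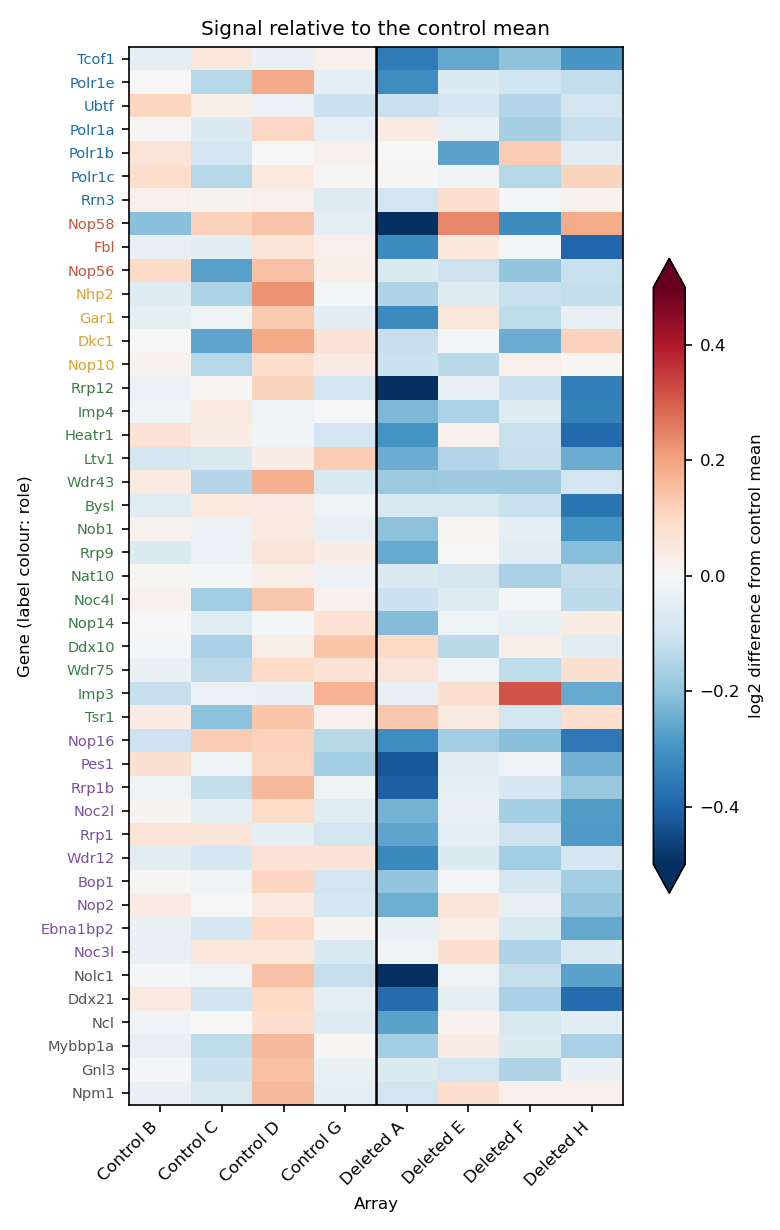
Log2 signal of the 45 genes (rows, labels coloured by role) on the 8 arrays (columns), as the difference from the control mean of each gene; blue is lower, red is higher, and colours saturate at 0.5 in either direction. E2f3-deleted replicate A holds the lowest value of 19 genes, and control replicate D the highest of 28.

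The genes varied by array as well as by group. Replicates A, E, F and H had 39, 31, 40 and 36 genes below the control mean, and the controls B, C, D and G had 25, 33, 7 and 27. Per-array medians were −0.20, −0.04, −0.11 and −0.12 in the E2f3-deleted arrays and −0.0079, −0.05, 0.09 and −0.03 in the controls, so replicate E overlapped control replicate C. Control replicate D held the highest value of 28 genes, and E2f3-deleted replicate A the lowest of 19. Within groups, deviations of gene pairs from their group means had a median correlation of 0.304 over the 8 arrays, beside 0.025 for pairs of all tested genes. The median was 0.185 for the 96 other biogenesis factors described below, 0.437 for 42 ribosomal proteins, 0.778 for 19 S phase genes and 0.858 for 19 mitosis genes. These pairs share arrays and normalization.

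Measures of RNA quality and of cell division differed between the same arrays. The Gapdh signal at the 3′ end minus that at the 5′ end, which grows as RNA is degraded, was 1.87, 1.48, 1.59 and 1.73 in replicates A, E, F and H and 1.39 to 1.53 in controls. The E2f3-deleted arrays thus had the same order in this measure as in the median of the 45 genes, with A the farthest from the controls and E inside their range. The median of the 19 mitosis genes was −0.52, −0.13, −0.41 and −0.30 in the same 4 arrays and −0.31 to 0.19 in controls, and that of 19 S phase genes −0.37, −0.03, −0.29 and −0.23 against −0.21 to 0.19. The median of the 14 macrophage markers was −0.17, −0.12, −0.09 and −0.19, against −0.06 to 0.05 in controls, so the groups of this median did not overlap. All 19 mitosis genes, all 19 S phase genes and all 14 macrophage markers had a negative difference, with medians of −0.34, −0.25 and −0.13. At an unadjusted p under 0.05, 57.9%, 36.8% and 28.6% of them were lower. The 45 genes had a median of −0.11 and 17.8% lower at that p, and all tested genes 6.9%. Fibroblast marker medians, given above, were highest in replicates H and A, the 2 arrays with the lowest medians of the 45 genes, and the mast cell median was highest in H. Endothelial medians were highest in A and F and near 0 in H. The part of RNA quality, cell division, macrophage content and other cells in the differences was not tested. In bulk samples such as these, fewer cells of a type and less RNA per cell cannot be told apart.

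**Figure D4:**
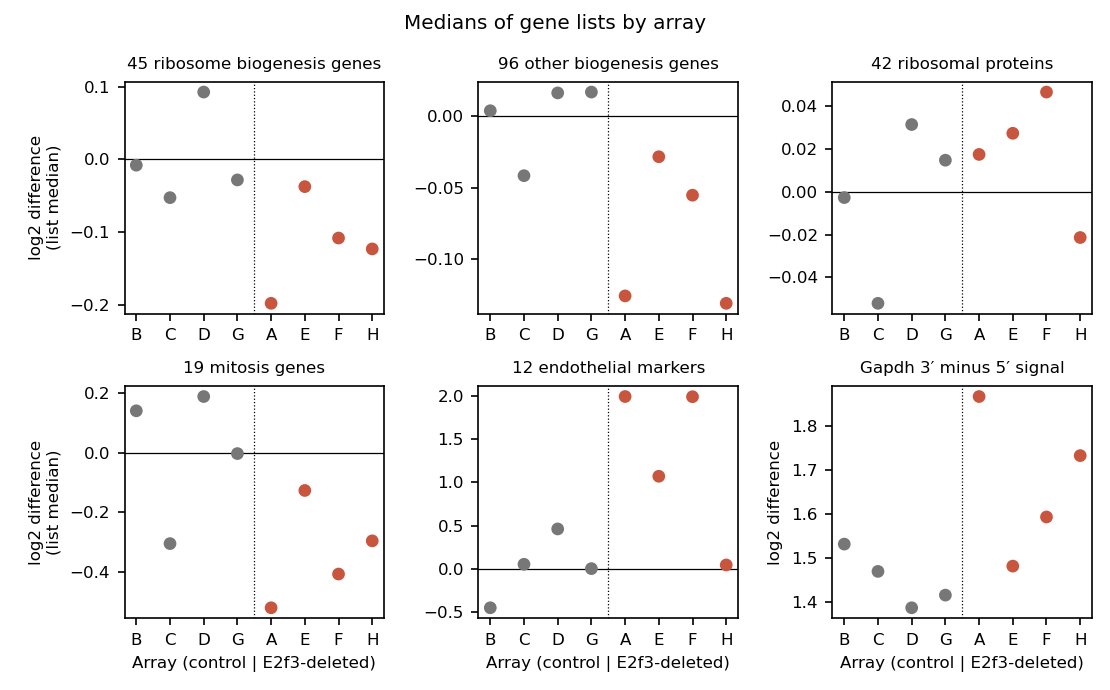
Medians of gene lists on each array (log2 difference from the control mean, vertical axis) and, lower right, the Gapdh 3′ minus 5′ log2 signal; grey points are control and red points E2f3-deleted arrays. Each panel has its own scale. Replicate A has the lowest median of the 45 genes (−0.20) and the highest Gapdh difference (1.87), and ribosomal proteins stay within −0.05 to 0.05.

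Further factors of the pathway, listed separately, were also mostly lower. Of 102 other biogenesis factors, 96 were tested, and 81 were lower and 15 higher, with a median of −0.09. At an unadjusted p under 0.05, 16 of the 96 were lower (16.7%) and 0 higher, beside the 6.9% and 7.27% given above. In 11 the groups did not overlap, all lower (11.5%), beside 4.22% of all tested genes. An adjusted p of 0.05 was passed by 0. Ddx27, a helicase of the large subunit, had log2 signals of 8.31, 8.17, 8.29 and 8.28 in controls and 8.04, 8.09, 8.12 and 8.07 in the E2f3-deleted group, a difference of −0.18 (SE 0.0524, limma, adjusted p = 0.237). Tbl3 of the early small-subunit processome had −0.27 (SE 0.0802), Mdn1, the large remodelling ATPase of the large subunit, −0.17 (SE 0.0513) and Eif6, which keeps the subunits apart, −0.19 (SE 0.0626). None of these groups overlapped.

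The ribosomal proteins themselves had a median near 0. Of 78 listed, 42 were tested, and 14 were lower and 28 higher, with a median of 0.02 whose sign flips without E2f3-deleted replicate F, without control replicate C and by scan file letter. Their median control log2 signal was 13.48. In 3 of the 42 all E2f3-deleted values lay above the controls, where 4.26% of all tested genes did. In 1 they all lay below (2.38%), against 4.22%. Rps4x and Rpl13a, of those above, differed by 0.06 each (limma, adjusted p = 0.56 and 0.567). Rps25, the 1 below and at a lower signal, differed by −0.42 (SE 0.131, limma, adjusted p = 0.255). Of the 42, 1 was lower at an unadjusted p under 0.05 (2.38%), beside 6.9% of all tested genes.

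Regulators of the MYC network had differences of both signs. Of 9 tested genes, 6 were lower (66.7%) and 3 higher, where 58.7% of all tested genes were lower. Myc had log2 signals of 8.31, 8.16, 8.51 and 8.47 in controls and 8.13, 8.24, 8.18 and 7.92 in the E2f3-deleted group, a difference of −0.24 (SE 0.101, limma, adjusted p = 0.336), and control replicate C lay within the E2f3-deleted range. Mxd4, which competes with MYC for its partner Max, had 10.28, 10.22, 10.0003 and 10.32 against 10.68, 10.42, 10.61 and 10.87. The groups of Mxd4 did not overlap, and the difference was 0.44 (SE 0.109, limma, adjusted p = 0.203). Mxi1, of the same family, had −0.32 (SE 0.096) and Mnt −0.12. Of 8 tested genes of the p53 response to nucleolar stress, 7 were lower (87.5%, beside the same 58.7%) and 1 higher, with a median of −0.08. At an unadjusted p under 0.05, 1 of the 8 was lower (12.5%), beside 6.9% of all tested genes. Mdm2, the ubiquitin ligase that limits p53 and is itself bound by free ribosomal proteins, had a difference of −0.21 (SE 0.0604, limma, adjusted p = 0.233) without overlap, Phlda3 0.27 (SE 0.144), Mdm4 −0.15 and Zmat3 −0.10.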

How the data were processed

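RNA was isolated with Trizol and made into biotinylated cRNA for Affymetrix arrays, per the labels' protocols. The authors deposited a table of log2 signals, 45101 probe sets by 8 arrays, summarised with RMA per the submitters' processing notes (no version is given there). RMA equalises arrays at the probe level before summarising them, which can hide a change common to most genes; the deposited array medians ran from 5.65 to 5.69.

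Probe sets with exactly 1 gene symbol (34945) were kept, and each gene was represented by its brightest probe set over the 8 arrays. The filter removed genes whose mean was below log2 6.00, the 40th percentile. Groups came from the titles. The groups share no replicate letters, so arrays were not paired. A linear model with 1 term for group was fitted with limma 3.58.1 under R 4.3.3, followed by two-sided eBayes statistics and Benjamini-Hochberg adjustment over 10916 genes; SE is the limma standard error. On simulated arrays of 10916 genes with 200 changed, for this comparison, it recovered 62% of changes of log2 0.5 and 93% of log2 1. The number of arrays limits the precision.

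The genes and lists were chosen with earlier results of these data known. Within the chosen set, values on every array are given for genes with an unadjusted p under 0.05, without overlap, or among the 4 highest signals or most positive differences. In the further lists, values on every array are given only for Ddx27, Myc and Mxd4, a choice that followed no stated rule. Other genes named from those lists are given without them. Array values of Rrp12, Nop58 and Nolc1 were added after their values were seen. Alternatives were the mean of probe sets, no filter, a second quantile normalization, centring on the median, array weights, a robust prior with a trend, each array left out and grouping by scan file letter.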

Additional observations from a re-analysis of the deposited data

Results flagged for a closer look

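Each group of 4 arrays was checked for an array far from the others, by the gap to its nearest neighbour over the range of the group, in the 45 genes and 7 list medians. Of 104 groups 3 passed Dixon's 95% critical value for 4 samples, where chance flags about 1 in 20. Rrn3 was at 7.92 on control replicate G, with the other controls from 7.99 to 8.0. Wdr43 was at 9.13 on E2f3-deleted replicate H, with the others from 9.04 to 9.05, and Bysl was at 7.90 on the same array, with the others from 8.16 to 8.19.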

How the results depend on the processing

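No paired analysis was possible because the groups share no replicate letters. Under all 15 alternatives the median of the 45 genes stayed negative and moved by less than the spread between arrays, from −0.15 to −0.09 with 1 array left out and −0.08 by scan file letter. Tcof1, Nop16, Imp4, Ltv1, Ddx21, Noc2l, Rrp1, Nat10, Bysl, Ncl and Nop10 stayed negative in all 15, and 0 of the 45 genes passed an adjusted p of 0.05 in any (limma). The smallest adjusted p of Tcof1 was 0.0967, with array weights. Leaving out 1 array gave 3 to 14 lower genes at an unadjusted p under 0.05, beside 4.3% to 8.48% of all tested genes. Genes without overlap numbered 6 to 14, beside 10.5% to 16.7% of all tested genes in either direction and 5.62% to 8.9% lower. Among all tested genes, 0 to 60 passed an adjusted p of 0.05 (60 without replicate E, 14 without replicate H). By scan file letter 1 of the 45 genes was lower at an unadjusted p under 0.05, beside 3.18% of all tested genes. In the same grouping 0 were without overlap, beside 2.41% in either direction. Estimates near 0 changed sign. Npm1 was −0.0613 with the mean of probe sets, −0.0004 with median centring and −0.0167 by scan file letter; Tsr1 was −0.0187 with the mean of probe sets; Imp3 was −0.19 and Rrn3 0.0155 by scan file letter, and Rrn3 was 0.0001 with array weights. With 1 array left out, Npm1 ranged from −0.0171 to 0.0636, Tsr1 from −0.025 to 0.089, Imp3 from −0.0706 to 0.119 and Rrn3 from −0.028 to 0.03. With the mean of probe sets Polr1a fell under the filter, leaving 44 genes. Leaving out an array leaves 3 against 4, where groups without overlap are more frequent. The cause of these dependences was not tested.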
